A study of Homo sapiens with 20 samples.

Results

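The Notch pathway was followed through 10 of the 57500 genes counted in each library, chosen by name for their roles in it: the receptors NOTCH1, NOTCH2 and NOTCH3, the canonical ligands JAG1, JAG2 and DLL1, the non-canonical ligands DLK2 and DNER, and the target genes HES1 and HEY1. Each was found by its Ensembl identifier in all 20 libraries. The choice was made with earlier results of these data known, so shares of the 10 beside those of all genes are a description. Notch signaling passes between cells that touch. A transmembrane ligand of the Jagged or Delta-like family on one cell binds a Notch receptor on its neighbour, the receptor is cleaved, and its intracellular domain enters the nucleus, where it joins the DNA-binding protein RBPJ and turns on genes of the HES and HEY families of transcriptional repressors. In the epidermis the pathway is known for promoting the departure of keratinocytes from the basal layer and their differentiation.

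The RNA came from NTERT cells, human keratinocytes immortalized with hTERT, grown to confluence and differentiated with calcium and serum. WT cells and GCN2KO cells, which had been edited with CRISPR-Cas9 to remove the eIF2 kinase GCN2, were each left unwounded or harvested 6 h after high-density wounding (HDW), in which multichannel pipet tips were drawn across the monolayer in perpendicular directions. Each of the 4 groups had 5 replicates. GCN2KO cells were an early-passage pool of edited cells and not a clone, and WT cells are described in the study as carrying a control guide RNA. Other effects of the guide that targets GCN2 cannot be told apart from the loss of GCN2. The study refers to its replicates as biological, and the labels do not say whether the cultures of a group came from separate passages or days, so p-values measure the spread between these samples, which may in part be technical. Because whole cultures were lysed, fewer cells that express a gene and less RNA per cell cannot be told apart.

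The libraries held 14083504 to 34611570 counts on genes. EIF2AK4, the gene of GCN2, had 3980.5 to 4555 normalized read counts in the 10 WT libraries and 806 to 962 in the 10 GCN2KO libraries, so no library went against its label. Here and in what follows, raw counts were brought to the mean library size with TMM factors, and the result is called normalized read counts. The keratinocyte markers KRT5, KRT14 and TP63 were abundant in every group, and the sum of 6 keratinocyte genes ran from 308379 to 474944. KRT1, a keratin of the differentiated suprabasal layers, was close to the detection limit, at 6 to 39 counts in a library. Markers of other cell types were low, with sums of 664 to 1039 for 6 fibroblast genes (nearly all COL1A1), 56.5 to 100.3 for 4 melanocyte genes, 38.6 to 115.8 for 4 immune genes (nearly all CD68) and 10.9 to 37.5 for 4 endothelial genes. TYR, which defines melanocytes, was at 0 in every library, and PTPRC, which defines leukocytes, was at 0 in 19 of 20. The GCN2KO unwounded libraries were more widely spread than the others in their balance of long and short genes. All but replicate 1 lay outside the range of the other groups, in both directions. The median deviation from the group mean of genes with over 8 kb of exon, minus that of genes with under 2 kb, was 0.063, 0.26, -0.26, 0.13 and -0.21 (log2) in GCN2KO unwounded replicates 1 to 5, against -0.068 to 0.087 in the other 15 libraries. The values of the members without replicates 3 and 5 of that group are given beside the results they touch.

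The 10 mRNAs spanned a wide range of levels, compared here as normalized read counts per kb of exon. In WT unwounded cells NOTCH1 was at 1618 ± 162 (n = 5, SD) per kb and JAG1 at 1463 ± 102 (n = 5, SD) per kb, and their ranges overlapped. HES1 followed at 845 per kb, then DLK2 at 735 and NOTCH3 at 601, whose ranges overlapped, then JAG2 at 463. DNER at 234 and NOTCH2 at 209 overlapped, DLL1 was at 122, and HEY1 was nearly absent at 1.45 per kb. The dominant receptor and ligand by mRNA level in these cells were therefore NOTCH1 and JAG1, in all 4 groups. After HDW in WT cells JAG1 stood highest at 1987 per kb, apart from NOTCH1 at 1351, and JAG2 at 257 came close to DNER at 228, with ranges that still did not overlap. In GCN2KO cells the order differed in its middle. DNER stood next below HES1, at 777 per kb unwounded and 823 after HDW, while DLK2 at 138 and 110.3 and JAG2 at 65.7 and 82.3 were now below NOTCH2 at 164 and 209.8. The ranges of NOTCH2 and DLK2 overlapped in the unwounded group and those of DLK2 and JAG2 after HDW. DLL1 at 21.2 per kb and HEY1 at 16.4 per kb overlapped in GCN2KO unwounded cells and were apart after HDW, at 26.9 and 10.8 per kb.

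**Figure D1:**
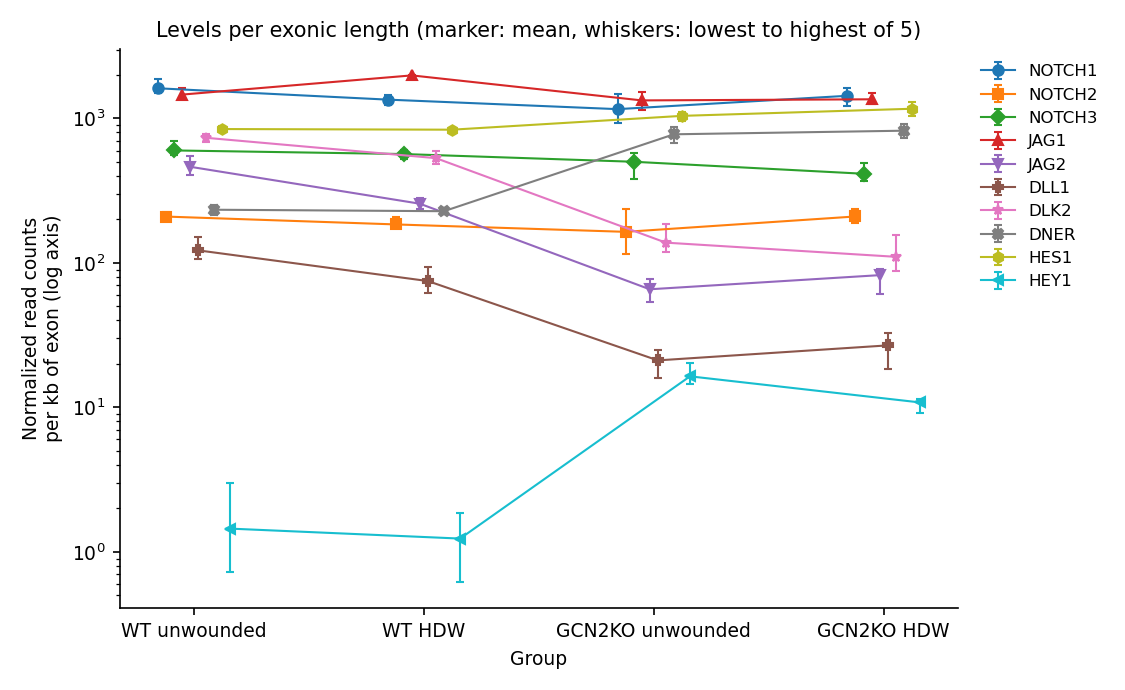
Level of each of the 10 genes in the 4 groups, as normalized read counts per kb of exon on a log axis; markers are means, whiskers run from the lowest to the highest of 5 libraries, and lines only join the markers of one gene. NOTCH1 and JAG1 stay at the top in every group, while DNER and HEY1 lie higher and JAG2, DLL1 and DLK2 lower in GCN2KO cells than in WT cells.

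The first comparison asked how the cells differed by genotype. Without wounding, the ligand mRNAs JAG2, DLL1 and DLK2 were 7.02-fold, 5.77-fold and 5.31-fold lower in GCN2KO than in WT cells, whereas DNER was 3.34-fold and the target gene HEY1 10.2-fold higher. The receptors and HES1 differed by much less, and JAG1 did not pass the test. Of the 10 genes, 9 passed an edgeR adjusted p of 0.05, 3 of them higher and 6 lower in GCN2KO cells, in a comparison where 66.5% of all 15348 genes tested did so (33.4% higher and 33.1% lower). Genes that also reached a size of 1 in log2 fold change are called DE genes, and these were 5 of the 10, 2 higher and 3 lower, against 16.4% of all genes (8.21% higher and 8.22% lower). The 5 libraries of each genotype did not overlap for 7 of the 10, against 53.3% of all genes. The median log2 fold change over the 10 was -0.30, beside 0.0042 over all genes tested. After HDW, 9 of the 10 passed, 4 higher and 5 lower, against 71.7% of all 15855 genes tested (35.9% higher and 35.8% lower). Among the 10, 5 were DE genes, 2 higher and 3 lower, against 14.9% of all genes (7.10% higher and 7.83% lower). The groups did not overlap for 8 of the 10, against 57.2% of all genes, and the median was -0.18, beside 0.0020 over all genes tested. The 5 DE genes were JAG2, DLL1, DLK2, DNER and HEY1 in both states. HEY1 is in each of these counts, although it passed the filter on low counts only through the GCN2KO libraries. The counts are therefore a description, and without HEY1 the DE genes were JAG2, DLL1, DLK2 and DNER in both states. Some cell type markers also differed by genotype. Of the 6 keratinocyte markers 5 passed unwounded and 6 after HDW, with log2 changes in these states of 1.83 and 1.96 for IVL, -1.06 and -0.83 for KRT1, -0.85 and -0.77 for KRT14, -0.52 and -0.43 for TP63, 0.50 and 0.52 for KRT5, and 0.23, which did not pass, and 0.28 for KRT10. KRT1 is counted among the 5 that passed unwounded. Its unwounded value is a description, because too few GCN2KO libraries reached the minimum of the low-count filter. CD68, nearly all of the immune sum, was higher in both (1.00 and 0.53), while PTPRC was at 0 in all but 1 library. Of the fibroblast markers COL1A1 was lower unwounded (-0.27) and DCN higher after HDW (0.66), and of the melanocyte markers MLANA was higher after HDW (0.79). Their part in the Notch gene differences was not tested.

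**Figure D2:**
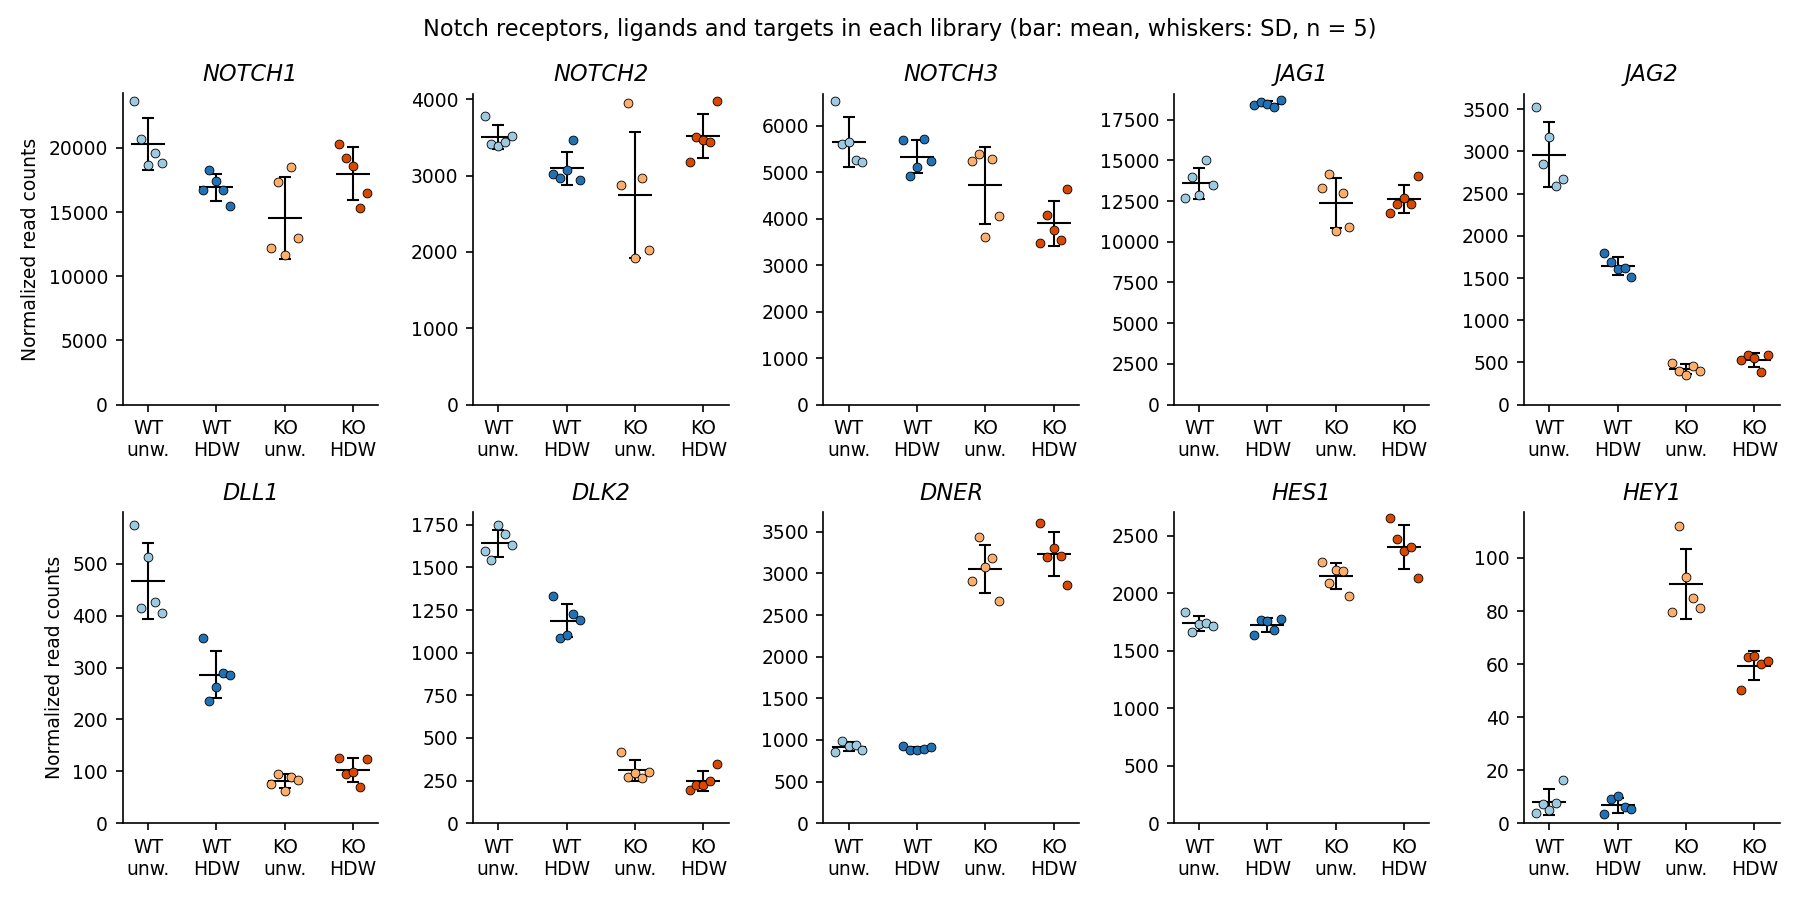
Normalized read counts of each gene in each of the 20 libraries, with points for single libraries, a bar for the group mean and whiskers for the SD (n = 5); unw., unwounded. JAG2, DLL1 and DLK2 sit lower and DNER and HEY1 higher in every GCN2KO library than in any WT library, and the GCN2KO unwounded points of NOTCH1, NOTCH2 and NOTCH3 are widely spread.

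JAG2 encodes one of the transmembrane Jagged ligands (chr14:105140982-105168824 of GRCh38, minus strand). In unwounded cultures it had 3528, 2853, 3171, 2589 and 2676 normalized read counts in WT replicates 1 to 5 and 499, 400.1, 346, 463 and 394 in GCN2KO replicates 1 to 5. After HDW the counts were 1793, 1692, 1609, 1619 and 1508 in WT and 525, 585, 552, 388 and 584 in GCN2KO cells. Every GCN2KO library was below every WT library, and the highest GCN2KO library held 585 against 1508 in the lowest WT library. The mean of 2963 ± 386 (n = 5, SD) in WT unwounded cells compared with 420.4 ± 60.6 (n = 5, SD) in GCN2KO unwounded cells (log2 change -2.81 ± 0.11 (SE), edgeR adjusted p = 1.00e-11), and the mean of 1644 ± 106 (n = 5, SD) in WT HDW cells with 527 ± 81.5 (n = 5, SD) in GCN2KO HDW cells (log2 change -1.63 ± 0.086 (SE), edgeR adjusted p = 1.90e-09). The genotypes thus differed 7.02-fold before and 3.09-fold after wounding. Of the exonic bases of JAG2, 7.33% also belong to another gene on the same strand, ENSG00000257622, to which reads could have been split.

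DLL1, a Delta-like ligand (chr6:170282206-170306565, minus strand), had the lowest level of the canonical ligands per kb of exon. It had 574, 416, 513, 426 and 405 normalized read counts in WT unwounded and 75.0, 95.0, 61.4, 89.1 and 83.6 in GCN2KO unwounded libraries. After HDW there were 357, 236, 262, 289 and 286 in WT and 125, 95.4, 98.1, 70.2 and 124 in GCN2KO libraries. The genotypes did not overlap in either state. The fold difference was 5.77 without wounding (log2 change -2.53 ± 0.13 (SE), edgeR adjusted p = 1.63e-10) and 2.73 after HDW (log2 change -1.45 ± 0.14 (SE), edgeR adjusted p = 4.85e-07). DLL1 shares 9.69% of its exonic bases with FAM120B on the other strand, and it is not stated whether the counting used strand.

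DLK2 encodes a membrane protein of the Delta-like non-canonical group, which lacks the domain that canonical ligands use to activate receptors (chr6:43450352-43456632, minus strand). It had 1598, 1545, 1747, 1694 and 1632 normalized read counts in WT unwounded libraries and 415, 271, 292, 266 and 301 in GCN2KO unwounded libraries. After HDW it had 1330.4, 1089, 1106, 1224 and 1193 in WT and 195, 223, 221, 247 and 347 in GCN2KO libraries. All 10 GCN2KO libraries were lower than all 10 WT libraries. The difference was 5.31-fold unwounded (log2 change -2.41 ± 0.10 (SE), edgeR adjusted p = 2.23e-11) and 4.84-fold after HDW (log2 change -2.27 ± 0.12 (SE), edgeR adjusted p = 1.86e-09), and the change of this difference with HDW did not pass the test of the interaction. ABCC10 on the other strand shares 3.40% of its exonic bases.

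The RefSeq sequences upstream of JAG2 and DLK2 are shown because these ligand genes were the most strongly lowered with an entry in the table used. In the 250 bases before the RefSeq start of each, both strands were searched for TGGGAA and GTGGGAA, cores of the RBPJ site (every match of the longer contains the shorter), for TGATGNAA, the composite site of ATF4 and CHOP, and for TGANTCA, the AP-1 site. These occur in 20.8%, 5.43%, 3.14% and 6.57% of the same windows of 35116 promoters. Neither window holds any of them. The bases printed, 5′ to 3′ on the gene's strand (GRCh38.p14), end where an exon of the gene annotated by GENCODE begins, and no letter is in capitals because there was no match. They are chr14:105168825-105169026 on the minus strand for JAG2 and chr6:43455591-43455798 on the minus strand for DLK2, a stretch that lies in an intron of the gene as GENCODE annotates it.
JAG2: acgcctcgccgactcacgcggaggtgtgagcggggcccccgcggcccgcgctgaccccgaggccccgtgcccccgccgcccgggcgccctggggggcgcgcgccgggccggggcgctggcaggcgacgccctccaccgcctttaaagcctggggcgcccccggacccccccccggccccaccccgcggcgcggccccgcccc
DLK2: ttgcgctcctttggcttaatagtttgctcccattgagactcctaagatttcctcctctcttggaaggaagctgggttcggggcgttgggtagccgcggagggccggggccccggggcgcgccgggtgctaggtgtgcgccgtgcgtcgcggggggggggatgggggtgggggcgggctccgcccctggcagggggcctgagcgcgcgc

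DNER encodes a transmembrane protein with EGF repeats that is best known from neurons and has been described as a non-canonical Notch ligand (chr2:229357629-229714555, minus strand). It had 851, 992, 923, 943 and 883 normalized read counts in WT unwounded and 2909, 3437, 3081, 3187 and 2665 in GCN2KO unwounded libraries. After HDW there were 921, 882, 876, 893 and 913 in WT and 3601, 3194, 3307, 3215 and 2864 in GCN2KO libraries. The lowest GCN2KO library, at 2665, was well above the highest WT library, at 992. DNER was 3.34-fold higher in GCN2KO cells without wounding (log2 change 1.74 ± 0.075 (SE), edgeR adjusted p = 2.59e-11) and 3.61-fold higher after HDW (log2 change 1.85 ± 0.055 (SE), edgeR adjusted p = 1.83e-11). It was the only one of the 5 ligand genes to be higher in GCN2KO cells in either state. No other annotated gene shares its exonic bases.

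JAG1, the ligand mRNA with the highest level per kb of exon (chr20:10637684-10673999, minus strand), did not separate the genotypes without wounding. It had 12661, 13965, 12853, 15028 and 13513 normalized read counts in WT unwounded and 13272, 14166, 10653, 13006 and 10914 in GCN2KO unwounded libraries, which overlapped (log2 change -0.13 ± 0.086 (SE), edgeR adjusted p = 0.197). After HDW there were 18366, 18579, 18431, 18299 and 18699 in WT and 11744, 12341, 12709.9, 12296 and 14020.3 in GCN2KO libraries, and these did not overlap. JAG1 was then 1.46-fold lower in GCN2KO than in WT cells (log2 change -0.55 ± 0.046 (SE), edgeR adjusted p = 1.13e-07). Of its exonic bases, 3.29% are shared with ENSG00000270792 on the other strand.

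**Figure D3:**
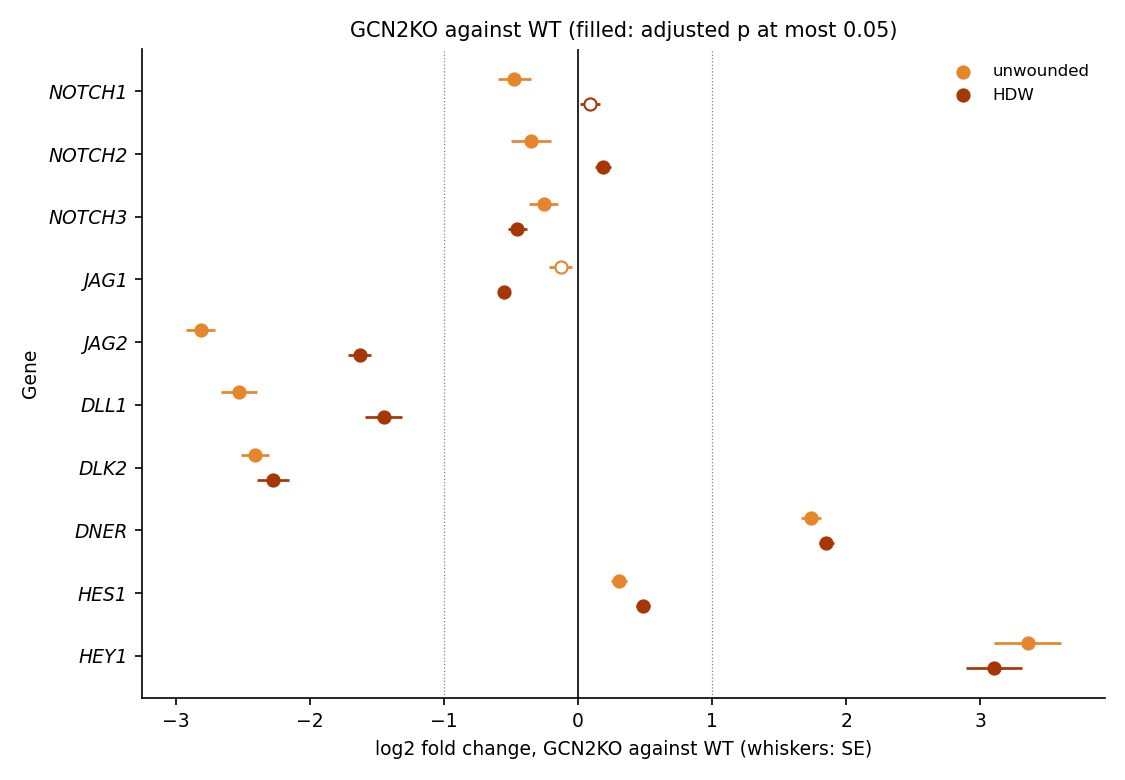
log2 fold change of GCN2KO against WT for each gene, unwounded and after HDW, with whiskers for the SE; filled points have an edgeR adjusted p of at most 0.05, and dotted lines mark a log2 fold change of 1 in either direction. JAG2, DLL1 and DLK2 lie left of the lines and DNER and HEY1 right of them in both states, and the receptors, JAG1 and HES1 lie between the lines.

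The receptor mRNAs differed less by genotype, and all 3 passed as lower in unwounded GCN2KO cells. NOTCH1 (chr9:136494433-136546048, minus strand) had 23625, 20667, 18692, 19567 and 18838 normalized read counts in WT unwounded and 12227, 17348, 11632, 18519 and 12978 in GCN2KO unwounded libraries. All 5 GCN2KO libraries were lower, by a small gap (log2 change -0.48 ± 0.12 (SE), edgeR adjusted p = 0.00277). NOTCH2 (chr1:119911553-120100779, minus strand) had 3779.9, 3414, 3381, 3444 and 3514 in WT unwounded and 2883, 3947, 1924, 2966 and 2025 in GCN2KO unwounded libraries. The groups overlapped, and replicate 2 of GCN2KO was above every WT library (log2 change -0.35 ± 0.15 (SE), edgeR adjusted p = 0.0483). NOTCH3 (chr19:15159038-15200995, minus strand) had 6538, 5607, 5643, 5259 and 5220.5 in WT unwounded and 5234, 5400.1, 3607, 5292 and 4064 in GCN2KO unwounded libraries. These overlapped too (log2 change -0.26 ± 0.11 (SE), edgeR adjusted p = 0.0473). Reads of NOTCH2 could fall on its near-identical copies, and NOTCH2NLA held 26.2 to 64.4 normalized read counts while NOTCH2P1 was at 0. Only reads that mapped uniquely were counted, so reads from shared sequence could be missing. The counts on the copies therefore do not bound the uncertainty of NOTCH2.

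The 3 receptor genes are long, with 12531, 16744 and 9408 bases of exon for NOTCH1, NOTCH2 and NOTCH3, and moved with the long genes of the GCN2KO unwounded libraries. In replicate 3, where the difference of long and short genes was -0.26, NOTCH1, NOTCH2 and NOTCH3 lay -0.30, -0.46 and -0.37 (log2) from their group means. In replicate 2, where it was 0.26, they lay at 0.28, 0.57 and 0.21. Replicates 5 and 4 followed the same directions, while NOTCH1 of replicate 1 did not. Without replicates 3 and 5, an alternative chosen after the pattern was seen, the log2 fold changes were -0.33 for NOTCH1, -0.10 for NOTCH2 and -0.081 for NOTCH3, and only NOTCH1 still passed. Those of JAG2, DLL1, DLK2, DNER, HES1 and HEY1 were -2.69, -2.42, -2.36, 1.80, 0.34 and 3.38, and all of these 6 still passed. JAG1, with 9298 bases of exon, was at -0.0048 and did not pass. With single libraries left out, NOTCH2 passed in only 1 of 10 fits, the one without GCN2KO unwounded replicate 2, and NOTCH3 in 5 of 10, failing without WT unwounded replicate 1, 2 or 3 or GCN2KO unwounded replicate 3 or 5. The part of the long-gene pattern in the receptor differences was not tested.

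**Figure D4:**
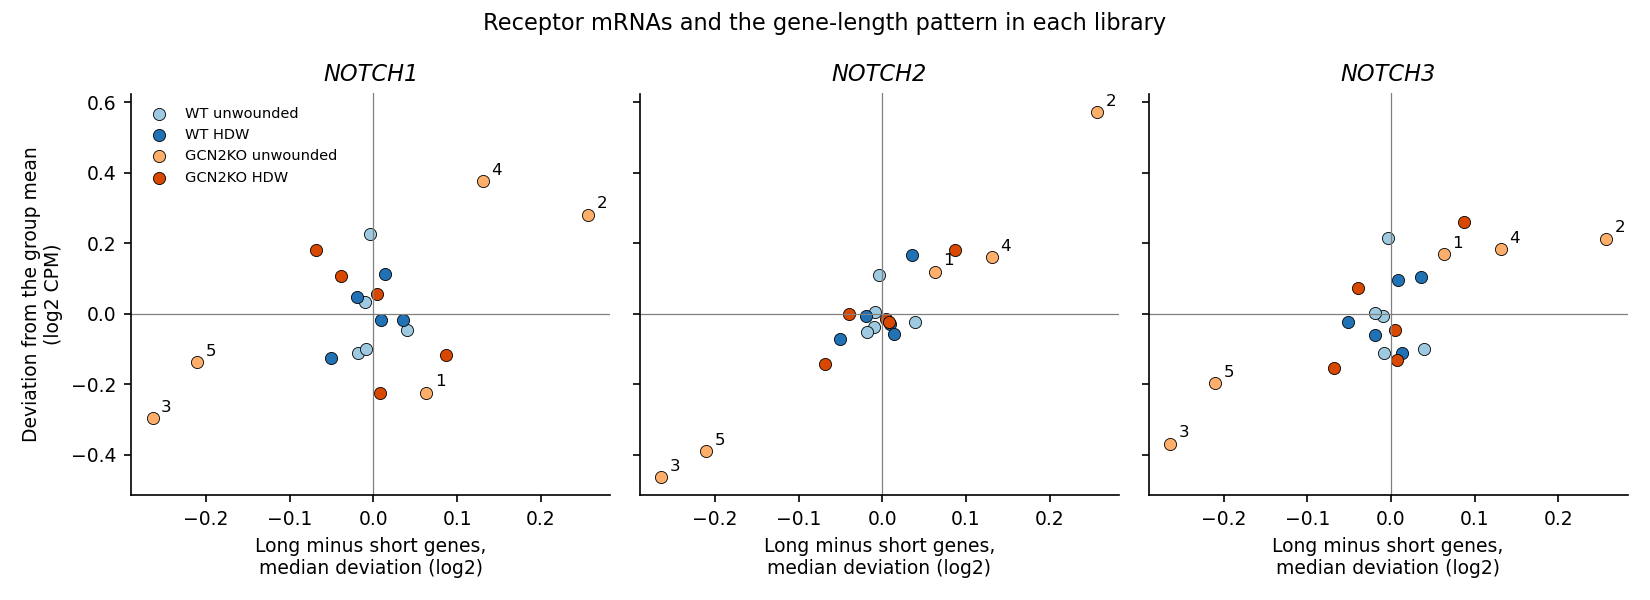
Deviation of NOTCH1, NOTCH2 and NOTCH3 from their group means (log2 CPM) in each of 20 libraries against the median deviation of genes with over 8 kb of exon minus that of genes with under 2 kb (log2); numbers are the replicates of the GCN2KO unwounded group. GCN2KO unwounded replicates 3 and 5 lie at the lower left and replicate 2 at the upper right of each panel, and the other 3 groups lie near 0 on the horizontal axis.

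After HDW the receptors showed no common direction. The difference of long and short genes lay between -0.068 and 0.087 in every HDW library. It is taken from each group's own mean, so it cannot show a shift of long genes between the genotypes. NOTCH3 had 5692, 4927, 5105, 5723 and 5237 normalized read counts in WT and 3484, 4081, 3751, 3537 and 4642 in GCN2KO libraries, all of which were lower (log2 change -0.45 ± 0.074 (SE), edgeR adjusted p = 7.50e-05). NOTCH2 had 3026, 2965, 3076, 3463 and 2939.9 in WT and 3175, 3502, 3469.5, 3444 and 3973 in GCN2KO libraries, which overlapped although the difference passed (log2 change 0.18 ± 0.06 (SE), edgeR adjusted p = 0.0136). It did not pass when all 20 libraries shared one estimate of the spread (edgeR adjusted p = 0.193). NOTCH1 had 16699, 18276, 17456, 16700.4 and 15489 in WT and 20295, 19252, 18596, 15312 and 16493 in GCN2KO libraries and did not pass (log2 change 0.089 ± 0.072 (SE), edgeR adjusted p = 0.28). The receptor that passed with the largest change after HDW was NOTCH3, at 1.37-fold lower.

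Both target genes were higher in GCN2KO cells. HES1, a repressor that is the best known direct target of Notch in many tissues (chr3:194136148-194138732, plus strand), had 1840.3, 1661, 1737, 1744 and 1717 normalized read counts in WT unwounded and 2271, 2089, 2199.7, 2192 and 1980.4 in GCN2KO unwounded libraries. After HDW there were 1637, 1764, 1755, 1677 and 1777 in WT and 2656, 2470.2, 2364, 2399 and 2131 in GCN2KO libraries. Every GCN2KO library was above every WT library, by a modest factor of 1.24 without wounding (log2 change 0.31 ± 0.061 (SE), edgeR adjusted p = 3.09e-04) and 1.40 after HDW (log2 change 0.48 ± 0.053 (SE), edgeR adjusted p = 1.78e-06). The upstream sequence of HES1 is shown because it was the only one of 7 members with an entry in the RefSeq table to hold any of the letters searched. GTGGGAA lies at positions -85 to -79 and another TGGGAA at -70 to -65, counted back from -1 at the base before the start. The 250 bases before the start (chr3:194135898-194136147, GRCh38.p14, plus strand), with the matches in capitals, are printed 5′ to 3′. A match is a description of the letters and not of binding.
HES1: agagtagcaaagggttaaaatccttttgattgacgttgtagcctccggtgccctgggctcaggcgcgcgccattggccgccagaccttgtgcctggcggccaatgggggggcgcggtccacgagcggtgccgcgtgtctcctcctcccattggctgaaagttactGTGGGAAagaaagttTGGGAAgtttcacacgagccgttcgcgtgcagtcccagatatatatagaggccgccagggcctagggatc

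HEY1, a related repressor and Notch target (chr8:79762371-79767857, minus strand), was barely detected in WT cells, with 2, 4, 4, 8 and 17 raw counts in the unwounded and 4, 11, 12, 6 and 6 in the HDW libraries. In GCN2KO cells it had 70, 73, 106, 101 and 96 raw counts unwounded and 60, 75, 75, 36 and 64 after HDW. As normalized read counts these were 3.97, 7.14, 4.83, 7.43 and 16.4 in WT unwounded against 79.6, 112, 93.0, 84.9 and 81.0 in GCN2KO unwounded libraries, and no WT library came near a GCN2KO library. HEY1 was 10.2-fold higher without wounding (log2 change 3.35 ± 0.25 (SE), edgeR adjusted p = 7.66e-09) and 8.58-fold higher after HDW (log2 change 3.10 ± 0.21 (SE), edgeR adjusted p = 1.59e-08). It passed the filter on low counts only through the GCN2KO libraries, so its passing the test is given as a description and as no independent support. Per kb of exon the mean of HEY1 remained the lowest of the 10 even in GCN2KO cells, although its unwounded libraries overlapped those of DLL1. Not divided by length, HEY1 was at 90.1 and DLL1 at 80.8 in GCN2KO unwounded cells, and at 59.4 and 103 after HDW.

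The second comparison asked what HDW did to these genes in each genotype, and uses the same 20 libraries as the first. In WT cells, 6 h after wounding, JAG1 rose 1.36-fold while JAG2 fell 1.80-fold, DLL1 1.62-fold and DLK2 1.39-fold. NOTCH1 and NOTCH2 were 1.20-fold and 1.14-fold lower. HEY1 had too few counts in WT cells to be tested, so 9 genes were, and 6 passed, 1 higher and 5 lower, against 51.3% of all 15348 genes tested (26.1% higher and 25.2% lower). The libraries of the groups did not overlap for 5 of the 9 genes, against 36.9% of all genes. Changes were small, with 0 DE genes among the members by edgeR, 0 by DESeq2 and 0 among those at an unadjusted p under 0.05, against 4.17% of all genes (2.62% higher and 1.55% lower). At an unadjusted p under 0.05 alone, 6 of the 9 were below it. Both fibroblast markers tested were also lower after HDW in WT cells, COL1A1, nearly all of the fibroblast sum, with a log2 change of -0.24 and DCN with -1.23, and CD68 was higher (0.52). Their part in the Notch gene changes was not tested.

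The canonical ligands thus moved in opposite directions in WT cells. JAG1 went from 13604 ± 951 (n = 5, SD) to 18475 ± 163 (n = 5, SD) normalized read counts, and the lowest HDW library, at 18299, was above the highest unwounded library, at 15028 (log2 change 0.44 ± 0.042 (SE), edgeR adjusted p = 4.84e-07). JAG2 went from 2963 ± 386 (n = 5, SD) to 1644 ± 106 (n = 5, SD) (log2 change -0.85 ± 0.075 (SE), edgeR adjusted p = 2.26e-07), with its highest HDW library at 1793 and its lowest unwounded library at 2589. DLL1 went from 467 ± 73.8 (n = 5, SD) to 286 ± 45.3 (n = 5, SD) (log2 change -0.70 ± 0.11 (SE), edgeR adjusted p = 1.10e-04). All 5 HDW libraries of DLL1 were below all 5 unwounded libraries. DLK2 fell from 1643 ± 79.4 (n = 5, SD) to 1188 ± 97.8 (n = 5, SD) (log2 change -0.47 ± 0.052 (SE), edgeR adjusted p = 2.13e-06), also without overlap.

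The other members moved less or did not pass in WT cells. NOTCH1 fell from 20278 ± 2028 (n = 5, SD) to 16924 ± 1034 (n = 5, SD) (log2 change -0.26 ± 0.063 (SE), edgeR adjusted p = 0.00258), with no overlap, and NOTCH2 from 3507 ± 160.4 (n = 5, SD) to 3094 ± 213 (n = 5, SD) (log2 change -0.18 ± 0.048 (SE), edgeR adjusted p = 0.00475), with overlap. NOTCH3 at 5337 ± 356 (n = 5, SD) after HDW (log2 change -0.084 ± 0.061 (SE), edgeR adjusted p = 0.269), DNER at 897 ± 19.6 (n = 5, SD) (log2 change -0.036 ± 0.042 (SE), edgeR adjusted p = 0.494) and HES1 at 1722 ± 61.5 (n = 5, SD) (log2 change -0.016 ± 0.037 (SE), edgeR adjusted p = 0.746) did not pass. The libraries of NOTCH3, DNER and HES1 overlapped between the states. NOTCH1 and NOTCH2 did not pass when all 20 libraries shared one estimate of the spread.

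In GCN2KO cells a single member passed the test after HDW. HEY1 fell 1.49-fold, from 90.1 ± 13.3 (n = 5, SD) to 59.4 ± 5.37 (n = 5, SD) normalized read counts (log2 change -0.58 ± 0.13 (SE), edgeR adjusted p = 0.00773), and its groups did not overlap. It was the only 1 of the 10 to pass, against 22.7% of all 15791 genes tested (11.9% higher and 10.8% lower), and the only 1 without overlap, against 15.2%. By edgeR 0 of the 10 were DE genes, 0 by DESeq2 and 0 among those at an unadjusted p under 0.05, against 0.671% of all genes (0.475% higher and 0.196% lower). At an unadjusted p under 0.05 alone there were 7. JAG2 (0.34 ± 0.12 (SE), edgeR adjusted p = 0.0521), DLL1 (0.38 ± 0.16 (SE), edgeR adjusted p = 0.096) and HES1 (0.17 ± 0.068 (SE), edgeR adjusted p = 0.0771) had log2 fold changes above 0, JAG1 was near its unwounded level (0.036 ± 0.088 (SE), edgeR adjusted p = 0.8), and none of these passed. This count depended on the fit and on single libraries. It was 2 with DESeq2, 4 without the filter on low counts and 7 when all 20 libraries shared one estimate of the spread, and it ran from 1 to 3 with single libraries left out. Calls were gained by NOTCH1 without GCN2KO unwounded replicate 2 or 4, NOTCH2 without GCN2KO unwounded replicate 2, NOTCH3 without GCN2KO unwounded replicate 3, JAG2 without GCN2KO unwounded replicate 1 or 4 or GCN2KO HDW replicate 4, DLL1 without GCN2KO HDW replicate 4, and DLK2 and HES1 without GCN2KO HDW replicate 5. Without GCN2KO unwounded replicates 3 and 5 together, NOTCH3 (log2 fold change of -0.44) and HEY1 (-0.61) passed, and NOTCH1 and NOTCH2 were at 0.17 and 0.11.

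**Figure D5:**
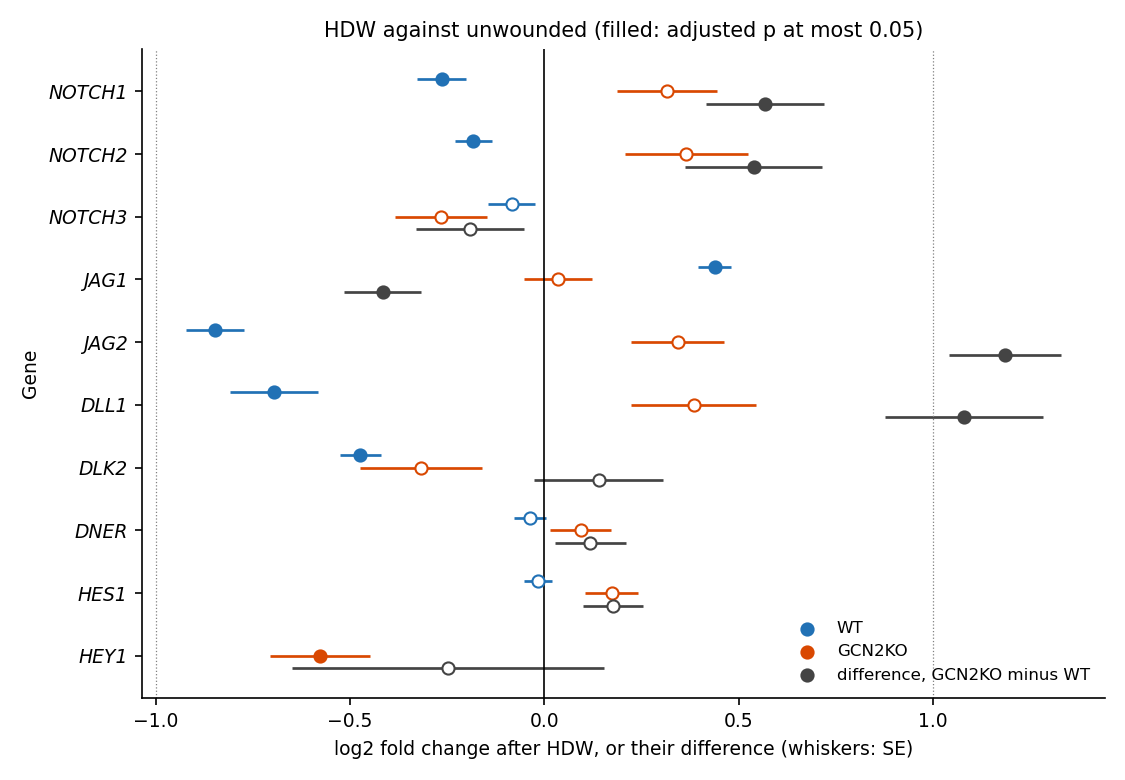
log2 fold change of HDW against unwounded in WT and in GCN2KO cells, and the difference of these responses, with whiskers for the SE; filled points have an edgeR adjusted p of at most 0.05. JAG2 and DLL1 lie left of 0 in WT and right of 0 in GCN2KO cells, JAG1 has a filled point right of 0 in WT cells and an open one near 0 in GCN2KO cells, and HEY1 was not tested in WT cells.

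The third comparison set the wounding responses of the genotypes against each other, as the interaction of genotype and HDW over all 20 libraries. It shares its libraries with the comparisons above. The responses of JAG2 and DLL1 differed most. JAG2 was lower after HDW in WT (log2 fold change of -0.85) and not in GCN2KO cells (0.34), a difference of 1.19 ± 0.14 (SE), edgeR adjusted p = 2.51e-06. DLL1 had responses of -0.70 and 0.38, a difference of 1.08 ± 0.20 (SE), edgeR adjusted p = 4.04e-04. For JAG1 the rise in WT cells (0.44) was not matched in GCN2KO cells (0.036), a difference of -0.42 ± 0.10 (SE), edgeR adjusted p = 0.00364. These differences were 1.05, 0.96 and -0.55 without GCN2KO unwounded replicates 3 and 5, and all of them still passed, DLL1 then with a log2 difference under 1, as also without GCN2KO unwounded replicate 3 alone.

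Among the receptors, NOTCH1 had responses of -0.26 in WT and 0.32 in GCN2KO cells, a difference of 0.57 ± 0.15 (SE), edgeR adjusted p = 0.0084. NOTCH2 had -0.18 and 0.37, a difference of 0.54 ± 0.18 (SE), edgeR adjusted p = 0.0277. These were 0.41, which still passed, and 0.27, which did not, without GCN2KO unwounded replicates 3 and 5, and NOTCH2 also failed without WT unwounded replicate 1, WT HDW replicate 5 or GCN2KO unwounded replicate 5 alone. NOTCH3 (-0.19, SE 0.14), DLK2 (0.14, SE 0.17), DNER (0.12, SE 0.092), HES1 (0.18, SE 0.077) and HEY1 (-0.25, SE 0.40) did not pass, although without GCN2KO unwounded replicates 3 and 5 NOTCH3 did, at -0.38. The value of HEY1 was -0.76 without WT unwounded replicate 5 and -0.058 without WT HDW replicate 3, and did not pass in either. HES1 passed without GCN2KO HDW replicate 5 and with library size alone as the normalization. In all, 5 of the 10 passed, 4 higher and 1 lower, against 23.7% of 16536 genes tested (11.2% higher and 12.5% lower). JAG2 and DLL1, both higher, were the 2 DE genes, against 3.31% of all genes (1.16% higher and 2.15% lower). The split of all genes that passed was 1851 higher and 2075 lower, but 2477 higher and 1510.0 lower with library size alone.

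Beyond these 10, a list of 58 further genes covers other receptors and ligands, receptor maturation and cleavage, ligand and receptor endocytosis, the nuclear complex, and other HES and HEY genes with feedback targets of the pathway. Without wounding 50 of them were tested, and 13 were higher and 25 lower in GCN2KO cells at an edgeR adjusted p of 0.05, with a median log2 fold change of -0.18 over those tested. Of 51 tested after HDW, 14 were higher and 24 lower, with a median of -0.10. These are 76.0% and 74.5% of those tested, beside 66.5% and 71.7% of all genes. The list, too, was chosen with earlier results of these data known. DE genes were 8 of the 50 unwounded and 7 of the 51 after HDW, beside 16.4% and 14.9% of all genes. NEURL1 unwounded and MFNG after HDW are counted here, although each was tested only through the group where it is high. These counts are a description. NOTCH4, DLL4 and DLK1 had too few counts to be tested in any comparison, so the receptors and canonical ligands that could be measured were those described above and DLL3. DLL3 had 10.5 ± 4.36 (n = 5, SD) normalized read counts in WT and 19.9 ± 7.88 (n = 5, SD) in GCN2KO unwounded cells, and passed as higher although the libraries overlapped (log2 change 0.87 ± 0.32 (SE), edgeR adjusted p = 0.0248). It did not pass after HDW (log2 change 0.49 ± 0.25 (SE), edgeR adjusted p = 0.0868). Too few libraries of either unwounded group reached the minimum of the low-count filter for it to be tested on that group alone.

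Of the 14 genes of receptor maturation, glycosylation and cleavage, 13 were tested unwounded, 5 of them higher and 8 lower in GCN2KO cells, and all 14 after HDW, 4 higher and 8 lower. Those that passed were 100% and 85.7% of those tested, beside 66.5% and 71.7% of all genes. FURIN, the protease that cleaves the receptor during maturation, had 4138 ± 96.7 (n = 5, SD) normalized read counts in WT and 1791 ± 308 (n = 5, SD) in GCN2KO unwounded cells (log2 change -1.20 ± 0.10 (SE), edgeR adjusted p = 1.55e-08), and 4722 ± 214 (n = 5, SD) and 1847 ± 283 (n = 5, SD) after HDW (log2 change -1.35 ± 0.083 (SE), edgeR adjusted p = 6.81e-09). LFNG, a Fringe glycosyltransferase that modifies the receptor's EGF repeats, had 536 ± 32.9 (n = 5, SD) in WT and 73.8 ± 26.0 (n = 5, SD) in GCN2KO unwounded cells (log2 change -2.88 ± 0.16 (SE), edgeR adjusted p = 2.55e-10), and 350.2 ± 26.7 (n = 5, SD) and 63.4 ± 21.1 (n = 5, SD) after HDW (log2 change -2.44 ± 0.15 (SE), edgeR adjusted p = 6.69e-09). Its relative MFNG, at 0 to 33 counts, was at 6.75 ± 4.64 (n = 5, SD) normalized read counts in WT and 21.1 ± 3.72 (n = 5, SD) in GCN2KO cells after HDW. It was tested there only because the GCN2KO libraries reached the minimum of the low-count filter, and its difference (log2 change 1.65, SE 0.36) is given as a description.

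Of 13 tested of the 14 genes of endocytosis and ubiquitin ligases, 5 were higher and 6 lower in GCN2KO cells unwounded and 4 higher and 5 lower after HDW, which is 84.6% and 69.2% of those tested beside 66.5% and 71.7% of all genes. NEURL1 and NEURL1B, which promote ligand endocytosis, were at 13.5 ± 6.26 and 103 ± 8.58 (n = 5, SD) normalized read counts in WT unwounded and 127 ± 16.9 and 624 ± 72.5 (n = 5, SD) in GCN2KO unwounded cells. NEURL1B was higher in GCN2KO cells (log2 change 2.59 ± 0.10 (SE), edgeR adjusted p = 1.29e-11). For NEURL1 the log2 change was 3.28 (SE 0.22), given as a description because only 4 of 5 WT unwounded libraries reached the minimum of the low-count filter, so that it was tested only through the group where it is high. After HDW the log2 fold changes were 1.87 and 1.56, and both passed. With HDW in WT cells NEURL1 went from 13.5 ± 6.26 (n = 5, SD) to 42.1 ± 12.4 (n = 5, SD) normalized read counts (log2 change 1.69, SE 0.29), a description for the same reason. The interactions passed for both genes, with values of -1.41 ± 0.34 (SE), edgeR adjusted p = 0.00358 for NEURL1 and -1.03 ± 0.20 (SE), edgeR adjusted p = 5.73e-04 for NEURL1B. That of NEURL1 rests on the same low WT unwounded libraries and is a description too. DTX4, a Deltex ubiquitin ligase, was lower in GCN2KO unwounded cells (log2 change -1.06 ± 0.10 (SE), edgeR adjusted p = 1.04e-07). After HDW DTX4 was at 3786 ± 176 (n = 5, SD) normalized read counts in WT and 2437 ± 426 (n = 5, SD) in GCN2KO cells and was not a DE gene.

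Of the 18 genes of the nuclear complex and its corepressors, 1 was higher and 10 lower in GCN2KO cells unwounded, and 5 were higher and 7 lower after HDW. These are 61.1% and 66.7% of the 18, beside 66.5% and 71.7% of all genes. RBPJ had 1214 ± 26.8 (n = 5, SD) normalized read counts in WT unwounded and 1139 ± 29.8 (n = 5, SD) in GCN2KO unwounded cells and passed in none of the 5 comparisons, with log2 values of -0.088 (SE 0.055) by genotype unwounded and -0.081 (SE 0.047) after HDW. MAML2, a coactivator that binds the receptor's intracellular domain on RBPJ, had 1151 ± 82.3 (n = 5, SD) in WT and 304 ± 56.9 (n = 5, SD) in GCN2KO unwounded cells (log2 change -1.92 ± 0.11 (SE), edgeR adjusted p = 4.67e-10), and a log2 fold change of -1.21 after HDW. TLE2, a Groucho corepressor used by HES proteins, had 259 ± 35.3 (n = 5, SD) and 59.3 ± 9.88 (n = 5, SD) (log2 change -2.13 ± 0.13 (SE), edgeR adjusted p = 1.12e-09), and a log2 fold change of -1.86 after HDW. Among other HES and HEY genes, HES2 was at 10321 ± 147 (n = 5, SD) in WT and 4864 ± 532 (n = 5, SD) in GCN2KO unwounded cells, and was lower (log2 change -1.08 ± 0.075 (SE), edgeR adjusted p = 3.39e-09), opposite to HES1 and HEY1. HES2 belongs to a group of 8 other HES and HEY genes and feedback targets. Of 5 tested in this group, 1 was higher and 1 lower unwounded, and 1 was higher and 4 lower after HDW. These are 40.0% and 100% of those tested, beside 66.5% and 71.7% of all genes. None of the group was a DE gene after HDW.

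Keratinocyte genes that have been tied to Notch in the literature were mixed. CDKN1A, which encodes the cell cycle inhibitor p21, was higher in GCN2KO cells, at 22557 ± 2122 (n = 5, SD) in WT and 63878 ± 10346 (n = 5, SD) normalized read counts in GCN2KO unwounded cells (log2 change 1.51 ± 0.11 (SE), edgeR adjusted p = 4.76e-09). IVL, which encodes the cornified envelope protein involucrin, was higher as well, at 3126 ± 255 (n = 5, SD) and 11071 ± 2637 (n = 5, SD) (log2 change 1.83 ± 0.13 (SE), edgeR adjusted p = 4.94e-09). KRT1, with a log2 change of -1.06 (SE 0.26), had few counts and reached the filter's minimum in only 3 of 5 GCN2KO unwounded libraries, so this value is a description. After HDW the log2 fold changes of CDKN1A and IVL by genotype were 1.52 and 1.96, and both passed. TP63, a basal transcription factor that is among the markers of the cell type, had 12016 ± 349 (n = 5, SD) in WT and 8346 ± 555 (n = 5, SD) in GCN2KO unwounded cells. Of the 6 genes in this list, 2 were higher and 3 lower unwounded and 3 higher and 2 lower after HDW, 83.3% of them in each state beside 66.5% and 71.7% of all genes. KRT1 is counted among the 3 lower unwounded.

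With HDW, 28 of the 58 genes passed in WT cells and 7 in GCN2KO cells. In WT cells 13 rose and 15 fell of 50 tested. NEURL1, whose rise is a description as said above, was the only DE gene. In GCN2KO cells 5 rose and 2 fell of 51 tested. In the interaction 10 were higher and 5 lower of 51 tested, and NEURL1, again as a description, and NEURL1B were the only DE genes. These are 56.0%, 13.7% and 29.4% of those tested, beside 51.3%, 22.7% and 23.7% of all genes.

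As a description of the patterns over all 20 libraries, the gene whose log2 CPM followed each member most closely among 16386 genes was found by Pearson's r. JAG2 was followed by RFX5 (0.992), DLL1 by JAG2 itself (0.986), DLK2 by STAT6 (0.996), DNER by BCL2L1 (0.994) and JAG1 by ATP13A2 (0.963). HES1 was followed by BAIAP2 (0.975) and HEY1 by P4HA2 (0.981). NOTCH1 was followed by HEXIM1 (0.927), NOTCH2 by SRGAP2 (0.961) and NOTCH3 by MARK4 (0.929). The libraries share 4 groups and, in the GCN2KO unwounded group, the long-gene pattern, and these values are a description only.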

How the data were processed

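RNA-seq libraries of 20 NTERT cultures in 4 groups of 5 were used. Per the labels and the submitters' processing notes, the authors trimmed reads with Trimmomatic, used STAR to align them to GRCh38 and featureCounts to count the reads that mapped uniquely. They deposited raw counts for each gene, with no normalization and no filter. Strandedness and the annotation release are not given in the sources used here. Of 57500 identifiers, 56410 matched GENCODE release 44, which gave symbols, positions and exonic lengths. The length of a gene counts each base of all its annotated exons once, and can exceed that of any single transcript.

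Tests used the quasi-likelihood functions glmQLFit and glmQLFTest of edgeR 4.0.16 (R 4.3.3) after TMM scaling. Low genes were removed by filterByExpr at a minimum count of 10 and a minimum total count of 15. Each comparison took the 10 libraries it is about, and the interaction took all 20. p-values were adjusted by Benjamini-Hochberg over all genes tested, and a DE gene, as in the study, is one at or below 0.05 whose log2 fold change is 1 or more in either direction. Each SE was derived from the fold change and the F statistic. CPM for the deviations and correlations were log2 values with a prior count of 2, and the long-gene pattern used 2745 long and 742 short genes with a mean log2 CPM of at least 3. The scripts were tested on simulated data. Replicate pairs of a group differed beyond sampling noise (chi-square per degree of freedom of at least 2.41), so none was counted as a duplicate. Samples of the same number did not deviate together (mean correlations of -0.11 to 0.033 in the 4 comparisons), so the replicate number was used as a block only in an alternative.

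Other settings tried were DESeq2 1.42.0, edgeR with DESeq2 size factors or unscaled library sizes, dropping the filter, requiring a mean count of 50, 1 fit for all 20 libraries, the replicate block, counts thinned to 14083504 per library and each library left out in turn. GCN2KO unwounded replicates 3 and 5 were left out together after the data were seen. The members and the lists of further genes were chosen with earlier results of these data known. All 10 members are named. A further gene is named where it is a DE gene, at most the 3 with the smallest adjusted p per list and comparison, and RBPJ, DLL3, the untested NOTCH4, DLL4 and DLK1, and the markers TP63, KRT5, KRT10, KRT14, CD68, PTPRC, COL1A1, DCN and MLANA were added after their values were seen. Promoter sequences are from RefSeq (GRCh38.p14) and matched 7 of the 10 members. Tables and figures were made in Python 3.11.15 with pandas 2.3.3, numpy 2.4.6 and matplotlib 3.10.9. The immunoblots, migration assays and imaging were not analysed here.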

Additional observations from a re-analysis of the deposited data

Results flagged for a closer look

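In 4 of 40 gene and group combinations examined, 1 library stood apart from the other 4 by more than 0.710 of the group's range, a limit that chance passes in about 1 of 20 groups. NOTCH2 in WT HDW replicate 4 was the highest, with a gap of 0.739 of the range. DLK2 in GCN2KO unwounded replicate 1 was the highest, with a gap of 0.770. HEY1 in WT unwounded replicate 5 was the highest, with a gap of 0.721, from 17 raw counts. HEY1 in GCN2KO HDW replicate 1 was the lowest, with a gap of 0.789, from 60 raw counts. Without these libraries NOTCH2, DLK2 and HEY1 kept the side of the threshold they had in the comparisons that use them.

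For 5 genes the response to HDW differed between WT and GCN2KO cells by the test of the interaction (edgeR). The difference, GCN2KO minus WT on the log2 scale, was 1.19 for JAG2 (adjusted p = 2.51e-06), 1.08 for DLL1 (adjusted p = 4.04e-04), 0.57 for NOTCH1 (adjusted p = 0.0084), 0.54 for NOTCH2 (adjusted p = 0.0277) and -0.42 for JAG1 (adjusted p = 0.00364). In each genotype 5 HDW libraries were compared with 5 unwounded ones. JAG2, DLL1 and NOTCH1 were lower in 5 of 5 WT HDW libraries than in any unwounded one, and JAG1 was higher in 5 of 5, while in GCN2KO cells the libraries of all 5 genes overlapped between the states.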

How the results depend on the processing

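Over all alternatives 999 values of 49 single-gene results were computed, of which 938 kept direction and side of the threshold, 30 lost the call, 24 gained one and 7 turned sign, and 31 of the 49 results kept both under every alternative. The 7 sign changes were of values near 0. With single libraries left out, HES1 with HDW in WT cells ran from -0.031 to 0.0032 (positive without WT unwounded replicate 1 or WT HDW replicate 1), JAG1 with HDW in GCN2KO cells from -0.024 to 0.085 (negative without GCN2KO unwounded replicate 3 or 5 or GCN2KO HDW replicate 5) and the interaction of DLK2 from -0.020 to 0.26 (negative without GCN2KO HDW replicate 5). JAG1 was at -0.088 without GCN2KO unwounded replicates 3 and 5 together. The number of members that passed with HDW in GCN2KO cells was 1, but 2 with DESeq2, 4 without the filter, 7 with all 20 libraries in one fit and 2 without GCN2KO unwounded replicates 3 and 5. DE genes in the interaction were 2, but 1 without those replicates. With single libraries left out, members that passed ran from 7 to 9 by genotype unwounded, 9 to 9 by genotype after HDW, 6 to 6 with HDW in WT, 1 to 3 with HDW in GCN2KO cells and 4 to 6 in the interaction, and DE genes from 5 to 5, 5 to 5, 0 to 0, 0 to 0 and 1 to 2. NOTCH2 and NOTCH3 by genotype unwounded also lost the call with DESeq2, with its size factors and with a mean of at least 50 counts, and NOTCH2 in thinned counts. The cause was not tested.

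The replicate block kept the side of the threshold of all 49 values, moving none by more than 0.049 (log2), and left 9, 9, 6, 1 and 5 members passing and 5, 5, 0, 0 and 2 DE genes. Over all genes it lowered the calls with HDW in GCN2KO cells from 1880.0 higher and 1706 lower to 1239 and 882. Samples correlated best with their own number in 1, 1, 3 and 0 of 5 pairs of the 4 comparisons.

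Over all genes, DE genes by genotype unwounded were 1260.0 higher and 1261 lower, but 2132 higher without the filter and 796 and 834 at a mean of at least 50 counts. After HDW they were 1126 and 1242, but 1737 higher with DESeq2, 1950.0 without the filter, and 563 and 765 at that mean. With HDW in WT cells they were 402 and 238, but 397 lower without the filter and 250.0 and 121 at that mean. With HDW in GCN2KO cells they were 75 and 31, but 114 and 85 without the filter, 37 and 3 at that mean, 18 lower with DESeq2, 54 lower with all libraries in one fit and 17 lower without GCN2KO unwounded replicates 3 and 5. In the interaction they were 192 and 355, but 73 and 207 at that mean and 119 higher in thinned counts. Genes that passed with HDW in WT cells were 4013 higher and 3865 lower, but 3368 and 4596 with library size alone. Genes that passed with HDW in GCN2KO cells were 2840.0 lower with all libraries in one fit, and 1003 higher and 683 lower without GCN2KO unwounded replicates 3 and 5. HEY1 in WT cells, at 2 to 17 counts, is limited by depth.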
